A study of Macaca fascicularis with 2 samples.

Results

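*C3orf49*, *SRGN* and *NRN1* were described in single cells of cynomolgus monkey cartilage and intervertebral disc, as 3 of the 21371 genes listed for 5674 tagged cells. They are 3 of the 6 genes that the study names for the cluster dominated by nucleus pulposus (NP) cells, so they were selected on their higher reads in these cells, and their contrast between notochordal and other cells is given as a description with no test. A cell was called notochordal when it had at least 5 reads of *KRT19* and at least 5 reads of *TBXT*, which 310 cells met. The other 5364 cells are called other cells. A cell is called positive for a gene from 5 reads.

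Notochordal cells descend from the embryonic notochord and persist in the NP, the gel at the centre of the intervertebral disc, where they lie among chondrocyte-like cells. *KRT19* encodes a keratin and *TBXT* the T-box factor brachyury, and both are long-standing marks of this lineage. *SRGN* encodes serglycin, a small proteoglycan core protein best known from the secretory granules of immune cells. *NRN1* encodes neuritin, a membrane-anchored protein that promotes the outgrowth of neurites. *C3orf49* is an open reading frame named for its place on a human chromosome, and no function is stated for it here.

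The cells came from wild type male monkeys aged 3 years, and the labels list AC3, NP3 and AC4, that is articular cartilage (AC) numbered for 2 animals and NP for 1 of them, digested, tagged, sorted as living cells and pooled in 1 library. Cells carried 1 of 4 tags, A951, A952, A953 and A954, whose tissues the sources used here do not give. There is 1 library, and cells are not replicates, so no test was made between groups. A second matrix of 1358 tagged cells was deposited beside the main matrix and is paired with no listed sample. Tags of the same name in the 2 matrices may mark different tissues and animals. The main matrix held 1344177214 reads, with 24907 to 1649566 reads per cell and a median of 186370 in notochordal and 198675 in other cells. These are reads and not molecules, and PCR copies are included. All intervals below cover counting error only, of cells for shares and of reads for levels. Those of levels treat reads as independent, so they are too narrow for molecules and leave out the spread between cells.

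Notochordal cells were concentrated under 2 tags. There were 67 under A951 (6.72% of the cells of that tag), 236 under A952 (20.8%), 5 under A953 (0.362%) and 2 under A954 (0.0925%). The name was checked against notochordal markers that the definition did not use. *NCAM1*, a cell adhesion molecule, reached 5 reads in 78.7% (95% Wilson interval 73.8–82.9) of notochordal and 9.28% of other cells. *CDH2*, N-cadherin, did so in 43.5% and 0.336%, and *SHH*, the hedgehog ligand, in 23.2% and 0.205%. *FOXA2*, a forkhead factor of the early notochord, went the other way, with 0.323% of notochordal and 2.26% of other cells, and *NOTO*, another notochord factor, had 1 read in all 310 notochordal cells together. Thus 3 of these 5 markers were more frequent in the cells called notochordal, and *FOXA2* and *NOTO* were not. The cells also carried the cartilage proteoglycan *ACAN* at 14440 reads per 1000000 reads (rpm), against 3967 rpm in other cells, but cartilage collagen *COL2A1* at 1269 rpm against 20075 rpm.

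*C3orf49* was found in nearly every notochordal cell. It was positive in 296 of 310 cells (95.5%, 92.6–97.3). Its reads in a cell ran from 0 to 3157 around a median of 306.5, with quartiles at 112 and 655.75. In other cells 74 of 5364 (1.38%, 1.10–1.73) were positive, and the median was 0. Leaving out each tag in turn, this share ranged from 0.739% (without A952) to 1.90%. Pooled over cells, the level was 2274 rpm (exact Poisson interval 2262–2285) in notochordal and 13.3 rpm (13.1–13.5) in other cells, a log2 ratio of 7.42. Under other settings the ratio ran from 6.38 to 10.07, and it was 8.98 without tag A952. The distributions touched at both ends, since 8 notochordal cells had no read and the other cell with most *C3orf49* had 1201.

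*SRGN* was almost as frequent. It was positive in 291 notochordal cells (93.9%, 90.6–96.0), with 0 to 1015 reads and a median of 108. Of the other cells 146 (2.72%, 2.32–3.19) were positive. The pooled level was 739 rpm (732–745) against 8.81 rpm (8.65–8.97), a log2 ratio of 6.39, which ran from 5.45 to 7.91 under other settings. The distributions overlapped, and the cell with most *SRGN*, at 1448 reads, was an other cell.

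*NRN1* was the least frequent of the 3 genes in notochordal cells. It was positive in 235 cells (75.8%, 70.7–80.2), with 0 to 793 reads and a median of 55, and its lower quartile of 5.25 reads lay at the limit used for a positive cell. Only 49 other cells (0.913%, 0.692–1.21) were positive. Leaving out each tag in turn, this share ranged from 0.403% (without A952) to 1.37%. The pooled level was 522 rpm (516–527) against 4.16 rpm (4.05–4.27), a log2 ratio of 6.97, which ran from 6.13 to 10.37 under other settings.

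All 3 genes had a log2 ratio of at least 6, which 0.565% of the 14686 genes counted reached, and of at least 1, which 26.7% reached. A ratio of -1 or less was found for 13.7% of genes and for none of the 3. Because these genes were selected on this contrast, their places of 15 (*C3orf49*), 28 (*NRN1*) and 58 (*SRGN*) among all genes are descriptions. *TBXT* and *KRT19*, which define the cells, were at places 1 and 7, and *APOE*, the other gene named with them, was at 65. A longer notochordal list held 8 further genes that were counted, of which 6 had at least 1 and 1 had -1 or less in the main matrix, and 5 and 2 in the second, where 23.5% and 18.1% of all genes did.

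**Figure D1:**
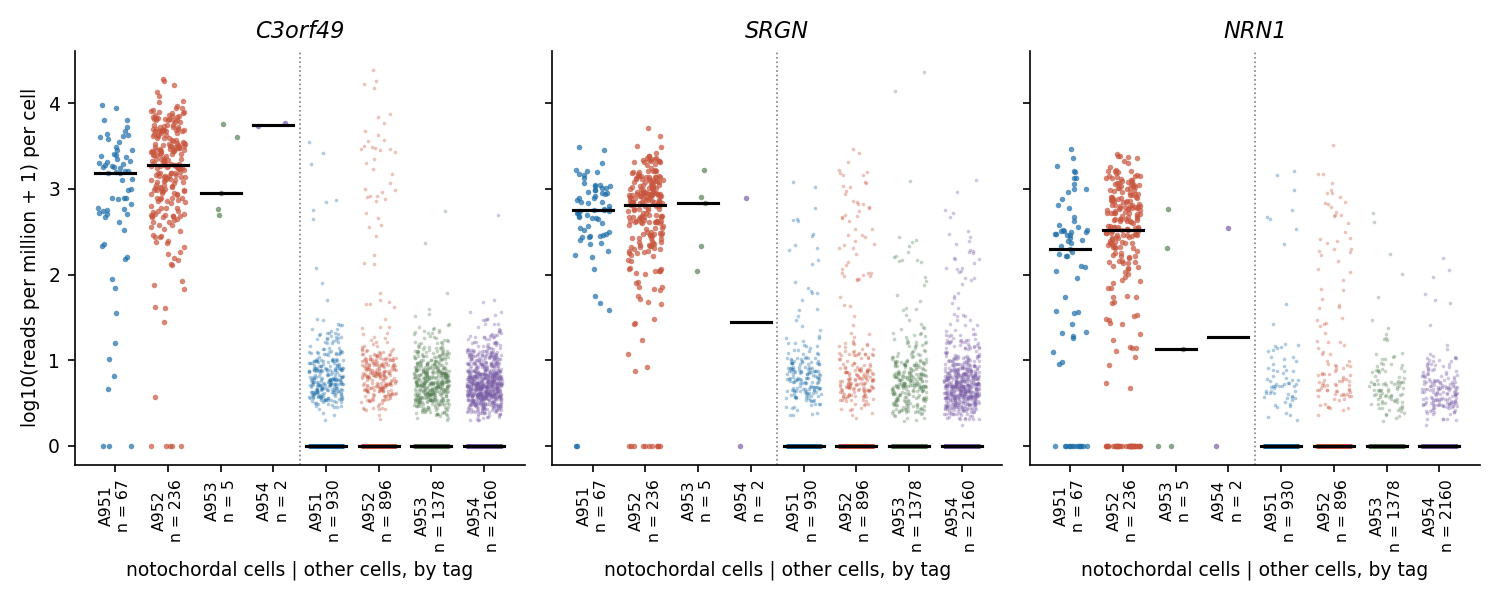
Level of each gene in every cell of the main matrix, as log10(rpm + 1), by tag, with notochordal cells left and other cells right of the dotted line; points are cells and black bars are medians. The medians of notochordal cells under A951 and A952 lie well above 0 for each gene, the medians of other cells all lie at 0, and a sparse upper cloud of other cells is densest under A952.

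Pooled levels were lower under A951 than under A952 for each gene. For *C3orf49* the pooled level in notochordal cells was 1529 rpm (1507–1551) under A951 and 2437 rpm (2423–2450) under A952, with 60 of 67 and 229 of 236 cells positive. For *SRGN* it was 670 rpm (656–685) and 760 rpm (752–767), with 64 and 221 positive cells, and its share was not lower under A951. For *NRN1* it was 382 rpm (371–394) and 571 rpm (564–578), with 46 and 185 positive cells. Median depth was also lower under A951, at 154155 reads against 191336, and its part in these differences was not tested. The intervals of the levels do not overlap, but they treat reads as independent and leave out the spread between cells. The cells of a tag also share their source and its handling, and the ranges over cells overlapped.

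The 7 remaining notochordal cells can be given one by one. The 5 cells under A953 had 776, 291, 3157, 703 and 86 reads of *C3orf49*. Their *SRGN* reads, in the same order, were 598, 105, 448, 287 and 19. Their *NRN1* reads were 11, 100, 321, 0 and 0. So each was positive for *C3orf49* and *SRGN*, and 3 for *NRN1*. The first of them had 867991 reads in total and was the only one of the 7 with reads of the proliferation genes *MKI67* (694) and *TOP2A* (615), and the fifth had 56 reads of *UBE2C*, another such gene. The 2 cells under A954 had 262 and 1184 reads of *C3orf49*, 0 and 168 of *SRGN*, and 0 and 76 of *NRN1*. The cell without *SRGN* and *NRN1* was the shallower, with 45036 reads against 217908.

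Most notochordal cells were positive for all 3 genes. Singly, *C3orf49*, *SRGN* and *NRN1* were positive in 95.5%, 93.9% and 75.8% of them. With such shares a large joint share follows without any link between the genes, and none is read from it. All 3 were positive in 214 of 310 cells (69.0%, 63.7–73.9), 38 of them under A951, 172 under A952, 3 under A953 and 1 under A954. A further 65 cells (21.0%, 16.8–25.8) were positive for *C3orf49* and *SRGN* but not *NRN1*. The other patterns were rare. There were 10 cells with *C3orf49* and *NRN1*, 10 with *SRGN* and *NRN1*, 7 with *C3orf49* alone, 2 with *SRGN* alone, 1 with *NRN1* alone and 1 with none. Without tag A952 the share with all 3 was 56.8%, and with 20 reads as the limit it was 58.1%.

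**Figure D2:**
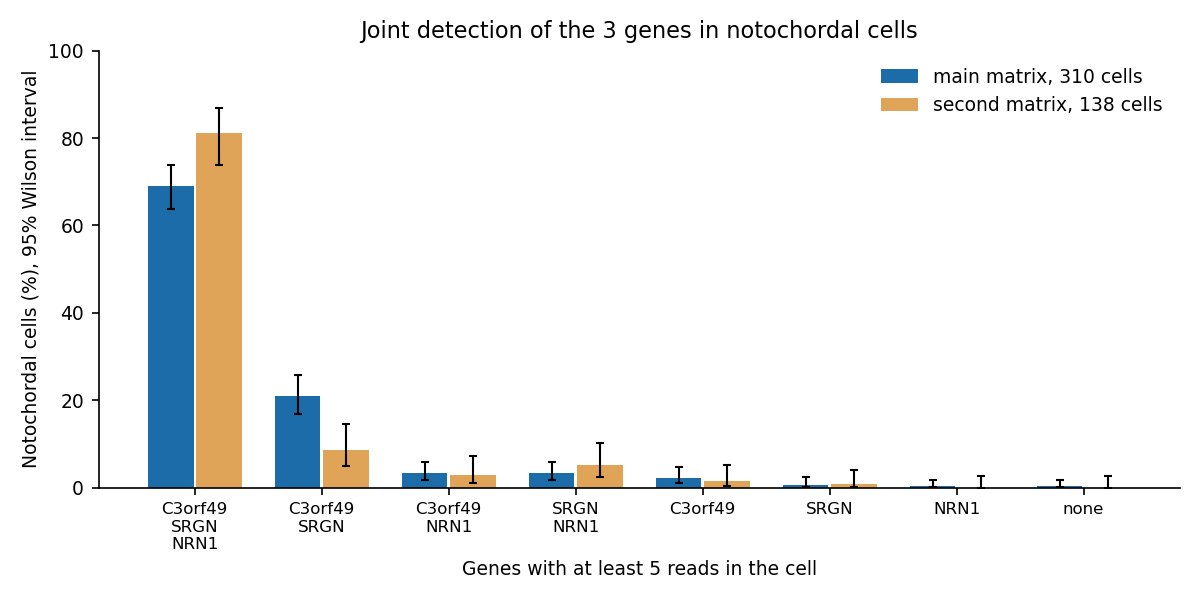
Share of notochordal cells in each of the 8 combinations of genes with at least 5 reads, for the main matrix (310 cells) and the second matrix (138 cells), with 95% Wilson intervals. Cells positive for all 3 genes were the most frequent in both matrices (69.0% and 81.2%), and *C3orf49* with *SRGN* came next (21.0% and 8.70%).

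Depth separated the genes. When notochordal cells were ranked by total reads and divided into 5 bins of 62 cells, *C3orf49* was positive in 59 cells of the lowest bin (95.2%), which held 31788 to 105908 reads per cell, and in 61 of the highest (98.4%), so its share hardly moved. *SRGN* was positive in 50 cells (80.6%) of the lowest bin and in all 62 of bins 3, 4 and 5. *NRN1* went from 27 cells (43.5%, 31.9–55.9) through 44, 48 and 55 to 61 (98.4%, 91.4–99.7). The pooled level moved in opposite directions, since *C3orf49* went from 3939 to 1702 rpm between the lowest and the highest bin while *NRN1* went from 288 to 593 rpm and *SRGN* from 866 to 720 rpm. Across the 310 cells the Spearman correlation of rpm with total reads was -0.25 for *C3orf49*, 0.03 for *SRGN* and 0.33 for *NRN1*. These cells share a library, total reads enter both sides of each correlation, and no p is given.

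In other cells the share positive stayed low in every bin of depth. From the lowest to the highest of 5 such bins it went from 2.24% to 1.77% for *C3orf49*, from 3.08% to 3.54% for *SRGN* and from 1.12% to 0.653% for *NRN1*. After each cell was thinned to 50000 reads, leaving out 11 notochordal and 205 other cells that were shallower, the expected share positive was 92.9% of notochordal and 0.859% of other cells for *C3orf49*. It was 89.6% and 1.75% for *SRGN*, and 70.8% and 0.811% for *NRN1*. The gap between the groups thus remained after thinning. The groups were still those defined on reads before thinning, and the genes were selected on this gap, so this is a description.

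**Figure D3:**
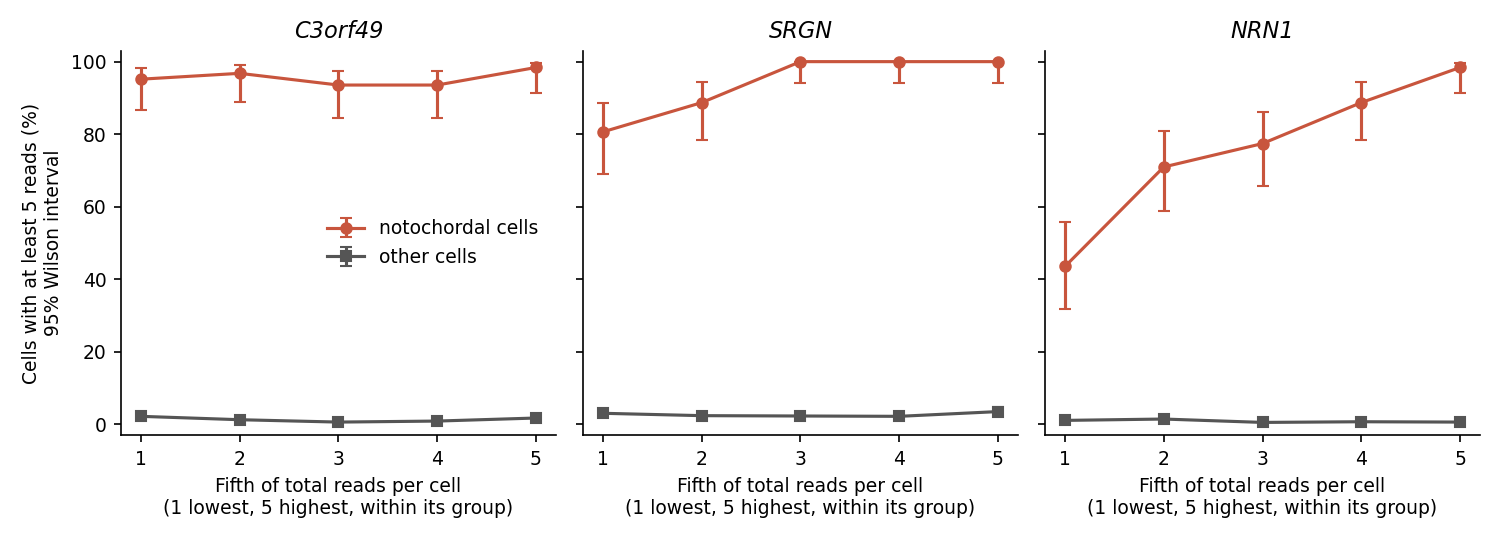
Share of cells with at least 5 reads of each gene by bin of total reads per cell (5 bins of equal cell number), for notochordal and other cells of the main matrix, with 95% Wilson intervals. In notochordal cells *C3orf49* stays at 93.5% to 98.4%, *SRGN* goes from 80.6% to 100% and *NRN1* from 43.5% to 98.4%, while every gene stays under 4% of other cells.

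Cells that lacked 1 of the genes differed in depth in the same way. The 75 notochordal cells not positive for *NRN1* had a median of 115433 reads, against 216319 in the 235 positive ones, and the 19 not positive for *SRGN* had 83487 against 193100. The 14 not positive for *C3orf49*, in contrast, had 187424 reads, close to the 186370 of the 296 positive cells. Of these 14 cells, 7 were under A951 and 7 under A952. The 10 among them that carried both *SRGN* and *NRN1* had a median of 220722 reads in total and of 0 reads of *C3orf49*, with at most 2. *TBXT* was at 742 rpm in the 14 cells and 896 rpm in the 296, and *NCAM1* was positive in 11 of 14 and 233 of 296. *LGALS3* stood further apart, at 3650 against 7364 rpm, while *ACAN* was higher in the 14, at 18588 against 14269 rpm. In the second matrix 8 notochordal cells were not positive for *C3orf49* and 130 were. The 8 had *TBXT* at 617 against 1126 rpm, *KRT19* at 185 against 387 rpm and *ACAN* at 19671 against 11792 rpm. The lower level of *LGALS3* was not seen there, with 4251 rpm in the 8 and 3964 rpm in the 130.

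Within notochordal cells of the main matrix, the share positive for one gene had overlapping intervals between cells with and without another, for every pair. *NRN1* was positive in 75.7% (70.5–80.2) of cells with *C3orf49* and in 78.6% (52.4–92.4) of the 14 without. It was positive in 77.0% (71.8–81.4) of cells with *SRGN* and in 57.9% (36.3–76.9) of the 19 shallower cells without. *SHH*, the signal that notochordal cells are known to send, was positive in 22.6% of *NRN1*-positive and 25.3% of *NRN1*-negative cells. It was positive in 72 of 291 *SRGN*-positive cells and in 0 of the 19 others, which were shallower (median 83487 against 193100 reads) and had it at 1.19 rpm when pooled.

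Levels of the 3 genes showed little relation across notochordal cells. The Spearman correlation of rpm over 310 cells was 0.07 for *C3orf49* and *SRGN*, -0.13 for *C3orf49* and *NRN1* and 0.01 for *SRGN* and *NRN1*. In reads that were not scaled the values were 0.18, 0.11 and 0.35, and with total reads held fixed they were 0.07, -0.04 and 0.04. Over the 138 cells of the second matrix they were -0.05, -0.22 and -0.09 in rpm. In cells positive for both, *C3orf49* and *NRN1* had -0.19 in the main and -0.18 in the second matrix. The cells share a library and depth enters each value, and correlations of this size in sparse counts are no finding.

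**Figure D4:**
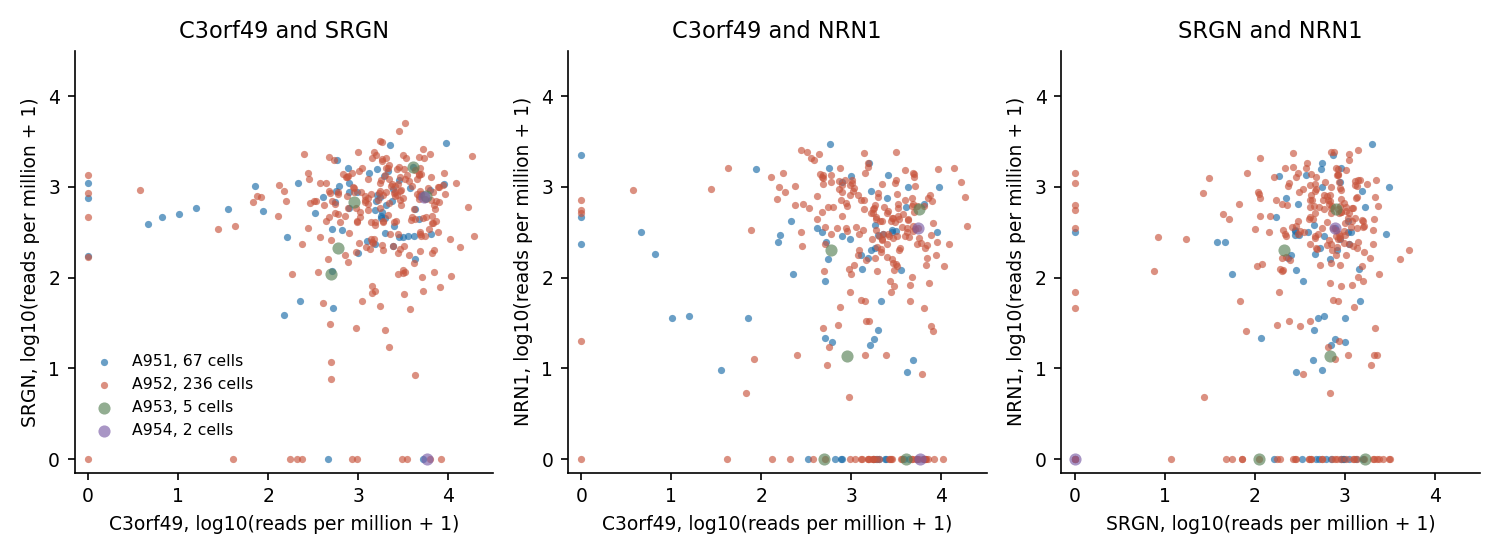
Levels of each pair of genes in the 310 notochordal cells of the main matrix, as log10(rpm + 1), coloured by tag; each point is a cell. The clouds show little slope (Spearman correlations 0.07, -0.13 and 0.01), and the row of points at 0 for *NRN1* spans the range of *C3orf49* and of *SRGN*.

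The genes whose rpm ran most like *C3orf49* among 7382 genes were *LYST*, a regulator of lysosome-related organelles, with a Spearman correlation of 0.59, *NAP1L1*, a histone chaperone (0.51), *GJA1*, the gap junction protein connexin 43 (0.47), *LGALS3* (0.47) and *ALCAM*, an adhesion molecule (0.44). In the second matrix, over 138 cells, the same pairs gave 0.69, 0.68, 0.39, 0.35 and 0.52. *LYST* was also far higher in notochordal than in other cells, with a log2 ratio of 6.57, and both it and *C3orf49* fell with total reads (-0.27 and -0.25). No gene ran closely with *SRGN*, for which the highest value was 0.21 (*NAP1L1*, 0.05 in the second matrix). For *NRN1* the highest were the collagen *COL1A2* (0.34), *FSTL1* (0.31), *GOLM1* (0.30), *ACAN* (0.30) and *PMP2* (0.29). Of these, *ACAN* and *PMP2* had 0.31 and 0.27 in the second matrix, and the others had 0.16, -0.08 and -0.04 in the order given. *COL1A2* and *PMP2* ran more closely with total reads (0.37 and 0.36) than with *NRN1*, whose own value was 0.33.

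Reads in other cells were held by few cells. Positive cells carried 85.6% of the *C3orf49* reads, 86.8% of the *SRGN* reads and 90.7% of the *NRN1* reads of all other cells, and the 10 cells with most reads carried 48.4%, 36.2% and 52.4%. Most of the cells with several of the genes met 1 of the 2 parts of the notochordal definition. All 3 genes were positive in 25 other cells, 22 of them under A952, and 24 of the 25 had 5 reads of *KRT19* or of *TBXT*. Of 16 with *C3orf49* and *SRGN*, 14 did. Among the 53 cells with at least 5 reads of *KRT19* but fewer of *TBXT*, 73.6% were positive for *C3orf49*, 62.3% for *SRGN* and 49.1% for *NRN1*. Among the 32 with *TBXT* but fewer than 5 reads of *KRT19*, the genes were positive in 5, 8 and 4. Most of these cells had no read of the missing gene, with *TBXT* at 0 in 43 of the 53 and *KRT19* at 0 in 25 of the 32. The 13 cells just inside the definition, in which the lower of the 2 genes had 5 to 9 reads, were positive in 92.3%, 76.9% and 69.2%. In the 5279 other cells with fewer than 5 reads of each, the shares fell to 0.568% (0.398–0.810), 1.99% (1.65–2.40) and 0.360% (0.231–0.561), and the log2 ratios against them were 9.81, 6.97 and 8.40.

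Cells positive for *SRGN* alone were the largest of the remaining groups, with 101 cells spread over A951 (16), A952 (17), A953 (25) and A954 (43). They had 5 to 1448 reads of *SRGN* with a median of 24, and 1 of them had 5 reads of *KRT19* or *TBXT*. *ACAN* was positive in 98 of them, and *COL2A1* in all 101, as in all 5364 other cells. Because serglycin is a product of immune cells, a list of 10 immune markers was read beside it, of which 8 were listed. At least 1 of these was positive in 18 of the 101 cells (17.8%, 11.6–26.4) and in 562 of 5169 cells with none of the 3 genes (10.9%, 10.1–11.8), and their summed level was 116 against 23.7 rpm. *CD68*, a lysosomal protein that is not restricted to immune cells, was the most frequent, in 11 and 451 cells. *CORO1A*, the most abundant of the 8 in the 101 cells at 42.6 rpm, was positive in 6 and 22. *PTPRC*, the pan-leukocyte marker CD45, was positive in 4 and 0, and *LAPTM5* in 4 and 8. At least 2 immune markers were found in 5 and 15 cells. The other cells with most *SRGN*, 1448 and 842 reads, were both under A953. The first had 66 reads of *PTPRC*, 136 of *LAPTM5* and 58 of *CORO1A*, the second had 19, 404 and 309, and they had only 12 and 20 reads of *COL2A1*. Both are among the 101 cells, so the summed level of immune markers there rests in part on them. Of the mast cell list, *KIT* was positive in 1 of the 101 cells, and *CPA3*, *HDC* and *MS4A2* in 0. The part of immune cells in the remaining *SRGN*-positive cells was not tested. In notochordal cells at least 1 of the 8 markers was positive in 38 of 310 (12.3%), and they summed to 25.5 rpm. *CD68* was positive in 19, *CD3E* in 10, *CD14* in 5, *CORO1A* in 4 and *PTPRC* in 2, and *LAPTM5*, *CD53* and *FCER1G* in 0. *CD3E*, a T cell receptor subunit, and *CD14*, a monocyte receptor, had log2 ratios of 2.07 and 1.25 over other cells, and 2.46 and -0.99 in the second matrix. Of the 7 immune markers counted, 2 had at least 1 and 1 had -1 or less, beside 26.7% and 13.7% of all genes. Their median was -0.07, and *LAPTM5* had -1.10. In the second matrix 2 had at least 1 and 3 had -1 or less, beside 23.5% and 18.1%, with a median of -0.99.

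Only 29 other cells were positive for *C3orf49* alone and 16 for *NRN1* alone. The former had a median of 6 reads of *C3orf49* (5 to 763) at a median depth of 343711 reads, so most stood at the limit in deep cells. The latter had a median of 40 reads of *NRN1* (5 to 422), and 16 of 16 had *ACAN*.

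Low reads below the limit were widespread. At least 1 read of *C3orf49* was found in 33.1% of other cells, of *SRGN* in 23.4% and of *NRN1* in 8.41%, against 97.4%, 95.5% and 82.9% of notochordal cells. Among the 5131 other cells under 5 reads of *KRT19*, *TBXT* and each of the 3 genes, at a median depth of 198225 reads, the shares with a read were 32.0%, 21.2% and 7.21%, so that no difference was read from single reads. The share for *C3orf49* in such cells was 29.5% under A951, 28.2% under A952, 33.2% under A953 and 33.9% under A954, at median depths of 183770, 176049, 195247 and 217856 reads. For each read of *KRT19* these cells had 3.72 reads of *C3orf49*, 2.31 of *SRGN* and 0.685 of *NRN1*, and notochordal cells had 2.07, 0.673 and 0.475. The source of the low reads was not tested.

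In the second matrix 138 of 1358 cells were notochordal, 62 under A953 and 76 under A954 and none under A951 or A952. Median depth was 81906 reads in notochordal and 126564 in other cells. The matrices shared 15 cell numbers, and no number was notochordal in both. *C3orf49* was positive in 130 of the 138 cells (94.2%, 89.0–97.0), with a pooled level of 2388 rpm against 16.0 rpm in other cells. *SRGN* was positive in 132 (95.7%, 90.8–98.0), at 960 against 13.4 rpm. *NRN1* was positive in 123 (89.1%, 82.8–93.3), at 700 against 102 rpm. All 3 were positive in 112 cells (81.2%, 73.8–86.8). Log2 ratios were 7.22, 6.17 and 2.78, so 2 of the 3 genes reached 6, as 0.301% of 13626 genes did, and all 3 reached 1, as 23.5% did. None had -1 or less, which 18.1% had. The study joined these monkey cells with earlier ones when it chose its genes. The total of cells it states equals the tagged cells of both matrices together. The second matrix thus appears to have shared in the choice, and its values are likewise a description. The order of the genes by share was led by *SRGN* here and by *C3orf49* in the main matrix, and in both matrices these 2 intervals overlap. *NRN1* had the lowest share in both, and its interval was apart from the others in the main matrix but overlapped them in the second.

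The shares of *NRN1* stood further apart between the matrices than those of the other genes. In notochordal cells it was 75.8% in the main and 89.1% in the second matrix, each from 1 library, and 67.6% in the main matrix without A952, and the gap was not tested. At 50000 reads per cell the expected shares were 70.8% and 89.7%, over 299 and 109 cells. In the second matrix 223 of 1220 other cells (18.3%, 16.2–20.5) were positive, against 0.913% in the main matrix, and 197 of them were positive for *NRN1* alone. The 223 cells were found under each tag, in 40 of 568 cells under A951 (7.04%), 70 of 342 under A952 (20.5%), 58 of 167 under A953 (34.7%) and 55 of 143 under A954 (38.5%). In the main matrix the same tag names gave 0.860%, 3.46%, 0.363% and 0.231%. The 197 cells had 5 to 478 reads of *NRN1* with a median of 54, which is in the range of reads in notochordal cells. These reads are not scaled, and notochordal cells of this matrix were shallower (median 81906 against 202167 reads), so the likeness is not one at equal depth. Of the 197 cells, 0 had 5 reads of *KRT19* and 0 had 5 of *TBXT*. Of the other notochordal markers, 3 were more frequent in them than in the 966 cells with none of the 3 genes, with *NCAM1* in 26.4% against 12.4%, *FOXA2* in 11.2% against 3.83% and *CDH2* in 5.58% against 2.38%, while *SHH* was positive in 1 cell of each group. In the notochordal cells of this matrix *NCAM1* was positive in 67.4% and *CDH2* in 18.1%. *FOXA2* was positive in 0 of those 138 cells, so it did not mark them. All 197 had 5 reads of *ACAN*, as did 932 of the 966. They were deep, with a median of 202167 reads and 6065 genes against 114884 and 3962 in cells with none of the 3 genes. At 50000 reads per cell *NRN1* had an expected share of 17.4% in the 946 other cells deep enough, against 21.6% in the same cells before thinning. At least 1 of the 8 immune markers was positive in 60 of the 197 cells and 206 of the 966 without the 3 genes, with a summed level of 40.4 and 34.4 rpm. The most abundant was *LAPTM5*, positive in 43 (21.8%) and 66 (6.83%), whereas *PTPRC* was positive in 1 and 1 and *CD53* in 0 and 0. A proliferation marker was positive in 38 and 85 cells. The part of depth and of these markers in the *NRN1* cells was not tested. *C3orf49* and *SRGN* were less frequent, with 30 (2.46%) and 47 (3.85%) positive other cells, and *C3orf49* was positive in 0 of 568 cells under A951, 0 of 342 under A952, 14 of 167 under A953 (8.38%) and 16 of 143 under A954 (11.2%). *SRGN* was positive in 12, 4, 11 (6.59%) and 20 (14.0%) of them. Library, animal and tissue cannot be told apart between the matrices.

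**Figure D5:**
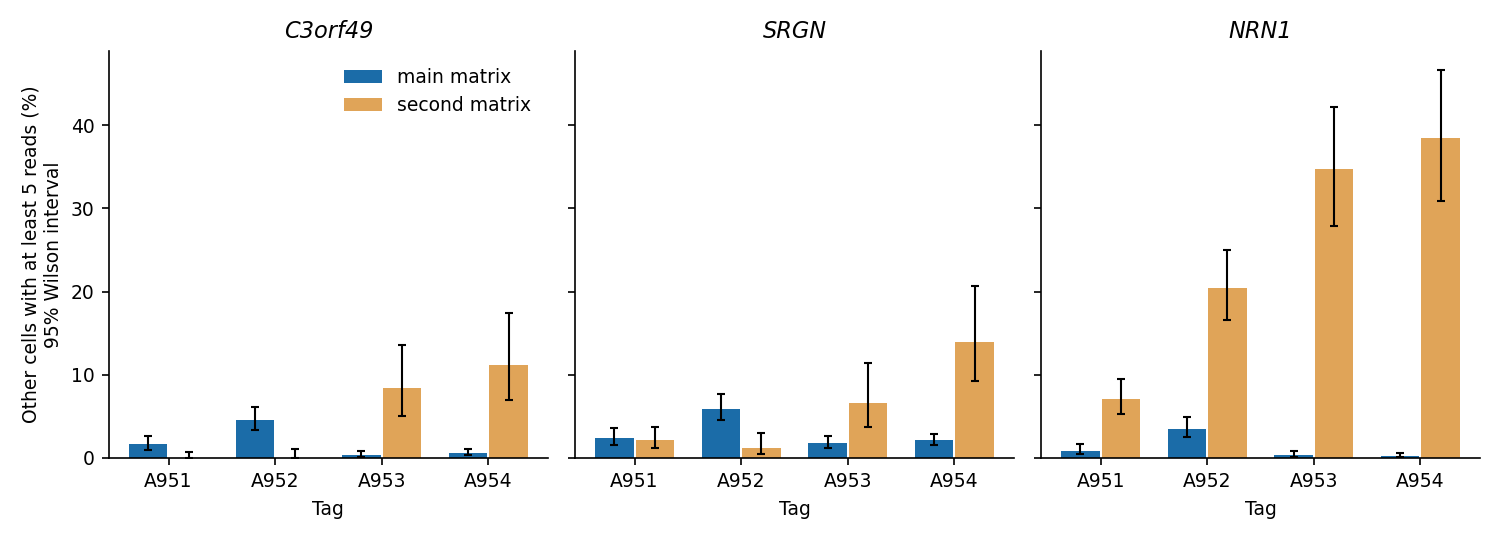
Share of other cells with at least 5 reads of each gene by tag, in the main and the second matrix, with 95% Wilson intervals; tags of the same name need not mark the same tissue. *NRN1* in the second matrix reaches 7.04% to 38.5%, against 0.231% to 3.46% in the main matrix, while *C3orf49* and *SRGN* reach at most 14.0% in both.

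Genes that make or bind the chains of serglycin showed no common direction. Of 15 genes counted, 5 had a log2 ratio of at least 1 and 3 of -1 or less in the main matrix, near the 26.7% and 13.7% of all genes, with a median of 0.65 beside 0.30 over all genes. *CD44*, a receptor that binds serglycin and hyaluronan, was higher in notochordal cells (672 against 163 rpm, log2 ratio 2.05, and 2.59 in the second matrix). *XYLT1* and *XYLT2*, which start the sugar chains of proteoglycans, had 1.35 and 1.77, and 2.51 and 0.12 in the second matrix. *CSGALNACT1*, which starts chondroitin sulfate, had 1.17, and 0.47 in the second. *CHSY1* and *CHST15*, which extend and sulfate these chains, were lower, at -2.07 and -2.26, and -1.41 and -2.77 in the second. The granule genes known as partners of serglycin in blood cells had few reads in all notochordal cells together, with 2 of *CTSG* (one of the 5 genes, with a ratio of 1.47 that rests on a floor of 3 reads), 8 of *PRF1*, 11 of *CPA3* and 74 of *PF4*, a platelet factor positive in 3 cells that was found in too few cells to be counted. In the second matrix 2 of 14 genes had at least 1 and 2 had -1 or less, beside 23.5% and 18.1% of all genes.

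Around neuritin, *NTRK3*, the receptor of neurotrophin-3, stood apart. It was positive in 212 of 310 notochordal cells (68.4%, 63.0–73.3) and in 1.19% of other cells, with a log2 ratio of 6.44 in the main and 6.26 in the second matrix. Of the 12 genes of this list, 4 had at least 1 and 2 had -1 or less, beside 26.7% and 13.7% of all genes, with a median of 0.29, close to the 0.30 over all genes. *NTRK2*, a related receptor, had 0.21. Among the ligands *NTF3* had 1.68 from 44 reads, and -0.26 in the second matrix. *BDNF*, which is known to induce *NRN1* in neurons, had -1.11, and -3.17 in the second. *GRIA1*, also of this list, had 1.60, and -2.91 in the second. *NRN1L*, the paralog of *NRN1*, had 1.18 against 0.533 rpm, and 5.80 against 0.662 rpm with a log2 ratio of 3.13 in the second matrix, and was positive in 3 and 2 notochordal cells of the main and the second matrix. In the second matrix 3 genes had at least 1 and 6 had -1 or less, beside 23.5% and 18.1% of all genes. Their median there was -0.71, beside 0.16 over all genes. Of 7 genes that attach or remodel the lipid anchor of proteins such as neuritin, 3 had at least 1 and none -1 or less (*PGAP1* 2.77, *PIGS* 1.85 and *PIGU* 1.05), with a median of 0.60, beside 26.7% of all genes at 1 or more. In the second matrix they had 2.39, 0.45 and -0.20, 1 of 7 had at least 1, beside 23.5% of all genes, and the median was -0.06.

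Genes beside the 3 genes were taken from the RefSeq annotation of the T2T-MFA8v1.1 assembly. It gives gene order only and may not be the build of the files. *C3orf49* is named *C2H3orf49* there. *THOC7*, of the mRNA export complex, is its nearest coding neighbour on one side and had a log2 ratio of -0.50. On the other side *SNTN* had 4.66, at 2.91 against 0.115 rpm, and 4.30 in the second matrix, and *SYNPR* had 4.09, and -3.07 in the second. Of the other 3 neighbours, *ATXN7* had 1.19, *CADPS* 1.61 and *PSMD6* -0.05, and 1.10, 1.87 and -0.26 in the second matrix. Over all genes 26.7% had at least 1 in the main matrix and 23.5% in the second. The neighbours of *SRGN* were *VPS26A* (0.39), *SUPV3L1* (-1.63), *HKDC1* (-1.65), *KIFBP* (0.70), *DDX21* (-2.09) and *DDX50* (0.16). Of the neighbours of *NRN1*, *F13A1* had -2.85, *FARS2* 0.82 and *RREB1* 2.32. The Spearman correlation of a neighbour with its gene across notochordal cells lay between -0.11 and 0.11.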

How the data were processed

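Single cells were sequenced by TAS-seq, in which cDNA is captured on barcoded beads and tags mark pooled samples. The authors deposited a table of counts, whole numbers of reads for each gene in each cell, not normalized and without molecular identifiers, so PCR copies are included. Per the submitters' processing notes and the study's methods, reads were aligned with HISAT2 2.2.1 and assigned by strand to whole genes with featureCounts 2.0.2, and multi-mapping reads were kept. The genome build is not given in the sources used here.

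Of the main matrix, 49 columns of doublets and untagged cells, by the deposited tag calls, were not used, no other doublet caller was run, and no other filter on cells was applied. Levels are reads per 1000000 reads summed over a group, and a group under 3 reads was set to 3 in a ratio. Genes with a read in at least 10 cells were counted in the comparisons of all genes. Shares have 95% Wilson intervals and levels exact Poisson intervals. Thinned shares are exact hypergeometric expectations. Genes named are the members, the genes defining the cells, fixed lists, 3 annotated neighbours on each side and the 5 genes most like each member by Spearman correlation, among genes with a read in at least 20% of notochordal cells. Members and lists were chosen with earlier results of these data known. The number of positive cells with immune markers and the cells with the most reads were looked at after the values were seen. Alternatives were other limits for positive and notochordal cells, thinning, a filter on cells (200 to 9000 genes, under 5% mitochondrial reads), other means and leaving out tags. Some named genes are not reported here. The code was tested on simulated data. Python 3.11.15, numpy 2.4.6, scipy 1.17.1, pandas 2.3.3 and matplotlib 3.10.9 were used.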

Additional observations from a re-analysis of the deposited data

How the results depend on the processing

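No paired analysis was possible because there was 1 library and no replicate number. Among 95 values under other settings, 36 stayed within the 95% interval of the value reported and 59 moved outside it. No log2 ratio changed sign, and the lowest was 5.45. Counting from 1 read, the notochordal share was 78.4% for all 3 genes, 97.4% for *C3orf49* and 82.9% for *NRN1*, and the share of other cells was 33.1% (*C3orf49*), 23.4% (*SRGN*) and 8.41% (*NRN1*). From 20 reads it was 58.1% for all 3, 92.3%, 86.8% and 66.8% for *C3orf49*, *SRGN* and *NRN1*, and 0.876% and 1.79% of other cells for *C3orf49* and *SRGN*. From 10 rpm it was 74.5% for all 3 and 81.0% for *NRN1*, and 5.67%, 5.09% and 1.75% of other cells. Thinned to 50000 reads, 61.0% had all 3, 89.6% *SRGN*, and 0.859% and 1.75% of other cells *C3orf49* and *SRGN*. With 1 read of *KRT19* and *TBXT* as the definition (408 cells), the shares were 53.7%, 75.2%, 74.5% and 59.1% and the log2 ratios 7.04, 5.77 and 6.29. With 20 reads the ratios were 6.65, 5.79 and 6.13 and the shares of other cells 2.05%, 3.37% and 1.35%. With *KRT19* alone the shares were 92.3% (*C3orf49*) and 89.3% (*SRGN*) of notochordal and 0.659%, 2.13% and 0.433% of other cells, and the ratios 8.85, 6.75 and 8.10. Against other cells under 5 reads of *KRT19* and of *TBXT* the shares were 0.568%, 1.99% and 0.360% and the ratios 9.81, 6.97 and 8.40. Ratios of means over cells were 6.38, 5.45 and 6.44, those of log2(rpm + 1) 9.31, 7.91 and 6.60, and those without the top 1% of cells of each group 10.07, 7.88 and 10.37. Correlations in reads not scaled moved to 0.11 (*C3orf49* and *NRN1*, with a change of sign) and 0.35 (*SRGN* and *NRN1*), and in cells positive for both genes that of *SRGN* and *NRN1* was -0.03, also with the other sign.

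Leaving out each tag in turn, the notochordal shares ranged from 56.8% to 72.4% (all 3), 90.5% to 97.1% (*C3orf49*), 93.4% to 94.6% (*SRGN*) and 67.6% to 77.8% (*NRN1*), the shares of other cells from 0.739% to 1.90%, 2.08% to 3.12% and 0.403% to 1.37%, the ratios from 6.67 to 8.98, 5.90 to 6.73 and 6.22 to 7.66, and the correlations from 0.06 to 0.12, -0.19 to -0.09 and 0.00 to 0.06. The shares of other cells were lowest without A952, which held 22 of the 25 other cells positive for all 3 genes. Reads without molecular identifiers limit the precision, so a low number of molecules can give many reads.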

Other observations

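Among the genes most like *NRN1* in rpm across the 1220 other cells of the second matrix, chosen after its values were seen, were *PYGL* (Spearman correlation 0.43), *PAPSS2* (0.42), *LYST* (0.40) and *EPYC* (0.39), of 7800 genes compared. *PAPSS2* makes the sulfate donor of cartilage proteoglycans and *EPYC* encodes a small cartilage proteoglycan. Across the 5364 other cells of the main matrix the highest values were *ZNF385B* (0.12), *GOLM1* (0.10) and *NTRK3* (0.10), which are weak and no finding. All these cells share a library within each matrix, and depth differs between them.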
